A study of Mus musculus with 6 samples.

Results

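The semaphorin, ephrin and netrin guidance genes were taken as all rows of the deposited count table whose gene symbol names a semaphorin of classes 3 to 7, a plexin, a neuropilin, an Eph receptor, an ephrin, a netrin or a netrin receptor (Dcc, Neo1 and the Unc5 genes). The pattern found 63 genes among the 24421 rows: 20 semaphorins, 11 plexins and neuropilins, 14 Eph receptors, 8 ephrins and 10 netrins and netrin receptors. Of these, 43 had enough reads to be tested and 20 did not. The cells were primary neural stem cells of E13.5 mouse embryos, grown as floating neurospheres with 20 ng/ml epidermal growth factor and 20 ng/ml fibroblast growth factor 2 in 20% oxygen and lysed on day 4 after dissociation. One genotype was Pml knockout (Pml-/- in the design text), a knockout by its label of the gene for the promyelocytic leukemia protein, a scaffold of nuclear bodies, and the other was WT, with 3 libraries each. The labels give neither the part of Pml that was removed nor whether the replicates came from separate embryos or cultures, so every p-value measures the spread between these 6 libraries, which may be technical. All libraries carry 1 batch date.

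Guidance genes encode cues and receptors that turn the cytoskeleton of a growing axon or a migrating cell towards or away from a source. Netrins are secreted and act through Dcc and Neo1, which mediate attraction, and through Unc5 receptors, which mediate repulsion and, for some members, cell death when no netrin is bound. Secreted class 3 semaphorins bind neuropilins that signal with class A plexins, while membrane-bound semaphorins mostly bind plexins directly. Ephrins and Eph receptors both sit on cell membranes and signal in both directions on contact. In the embryonic brain these families also act on progenitors, in the attachment of radial glia, the sorting of regions and the migration of new neurons.

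Reads were counted at the 3′ ends of transcripts, so a count does not grow with transcript length. Levels are given as CPM, reads per 1000000 after scaling by the library factors, and levels of different genes are compared on that scale. The knockout libraries held between 4980638 and 5917505 reads and the WT libraries between 1775152 and 4413318. The ribosomal precursor row Rn45s took between 14.6% and 17.6% of the reads in the knockout libraries and 41.9%, 39.8% and 19.6% in WT replicates 1, 2 and 3. Exact 95% binomial intervals ran from 41.8 to 41.9, from 39.7 to 39.9 and from 19.6 to 19.7 for these WT libraries and cover counting error only. Single reads therefore weighed differently: 1 read stood for 0.150, 0.165 and 0.149 CPM in knockout replicates 1, 2 and 3 and for 0.298, 0.799 and 0.227 CPM in WT replicates 1, 2 and 3. Pml itself had 14, 23 and 5 reads in the knockout libraries and 36, 35 and 44 in the WT libraries, or 2.21 ± 1.53 and 16.2 ± 10.2 CPM (SD, n = 3 each). For Pml the fitted log2 fold change was -2.81 with SE 0.661 (edgeR adjusted p 0.197). The lower Pml level passed by DESeq2 (adjusted p 0.00341) and without WT replicate 3 (edgeR adjusted p 0.0221). A 3′ tag outside the removed part would not report on the deletion.

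Most markers of the labelled cell type were abundant. The summed level of 14 neural stem cell markers, among them Sox2, Nes and Vim, ran from 8944 to 10939 CPM in the knockout libraries and from 7459 to 9903 in the WT libraries. Vim gave 2842 to 3354 CPM of that in the knockout and 2731 to 3210 in WT, while Msi1 had at most 5 reads in any knockout library and 4 in any WT library and was not tested. Of the 13 tested, 9 had a higher and 4 a lower fitted level in the knockout, and 0 passed. Fabp7 and Nr2e1 (15.4%) had an unadjusted edgeR p under 0.05, beside 15.9% of all tested genes. Fabp7 had 689 to 2132 CPM in the knockout and 73.5 to 708 in WT. Nr2e1 had 20.0 to 25.1 and 6.39 to 12.3 CPM, and Nes, with a lower fitted level, 171 to 205 and 110 to 393. Markers of neurons summed to between 682 and 749 CPM in the knockout and between 745 and 967 in WT. That sum was mostly Map2, at 541 to 570 and 421 to 614 CPM, and Gap43, at 113 to 177 and 268 to 506. Tubb3 stayed at or below 7.42 and 14.4 CPM and Dcx at or below 16.0 and 11.6. Oligodendrocyte precursor markers summed to 1759 to 2299 CPM in the knockout and 1624 to 2128 in WT. The largest part was Olig1, at 962 to 1045 and 526 to 1406 CPM, and then Olig2, at 496 to 527 and 291 to 559. Endothelial markers stayed at or below 16.5 CPM in the knockout and 12.5 in WT, with Cdh5, Tek and Cldn5 at 0 in every library. Fibroblast markers stayed at or below 27.0 CPM in the knockout and 31.5 in WT. Microglial markers summed to at most 2.11 CPM in the knockout and reached 30.4 CPM in WT replicate 2, with Tmem119 at 0 in every library. Erythroid markers reached 0.451 CPM in the knockout and 0.595 in WT, with all 4 globin genes at 0. The list of 15 hepatocyte markers stood apart. It summed to 102, 74.0 and 91.9 CPM in knockout replicates 1, 2 and 3 and to 513, 828 and 157 in WT replicates 1, 2 and 3.

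No guidance gene passed the test between Pml knockout and WT cells. Of the 43 tested, 28 had a higher fitted level in the knockout and 15 a lower one, with a median log2 fold change of 0.23 beside -0.01 over all 11317 tested genes, of which 49.7% were higher. By edgeR's quasi-likelihood test with Benjamini-Hochberg adjustment, 0 guidance genes had an adjusted p under 0.05, against 0.00884% of all tested genes (1 gene). At an unadjusted p under 0.05 there were 7 guidance genes, which is 16.3% of those tested, and the same threshold took 15.9% of all tested genes. The share among the guidance genes is thus near that of the whole table. By direction, 6 (14.0%) were higher in the knockout, where 6.7% of all tested genes were, and 1 (2.33%) was lower, where 9.19% were. The 6 include Epha7, which entered the test through its knockout counts alone, so its direction is no separate result. The smallest adjusted p among the guidance genes was 0.238. DESeq2 also called 0 of the 43, where it called 2.9% of all tested genes, 0.928% as higher in the knockout and 1.97% as lower. On simulated counts the edgeR fit called 4 of 50 genes raised 2-fold and 8 of 50 lowered 2-fold. The simulated WT libraries shared the same mean level per gene, so recovery in the real libraries may differ. Not passing therefore does not show that a gene was unchanged. In bulk samples a lower count can mean fewer cells of a kind or less RNA per cell, and the reads cannot tell these apart.

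**Figure D1:**
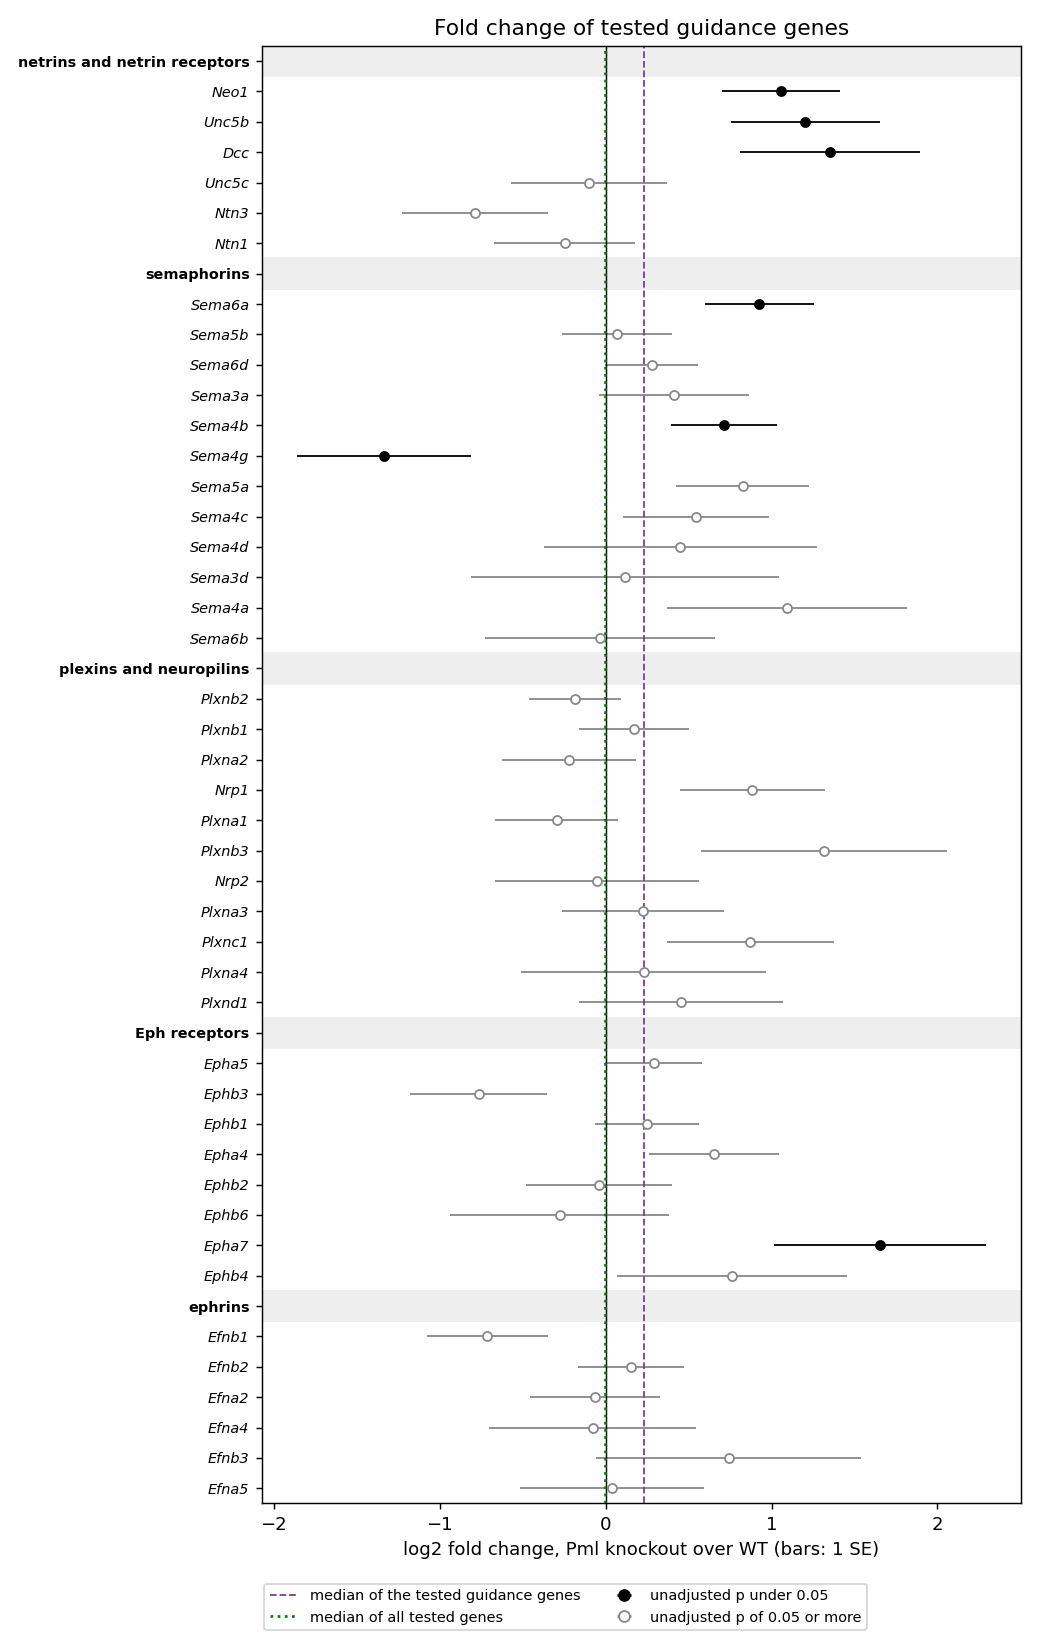
Fold change of the 43 tested guidance genes, by family and within a family by mean level. Each point is a log2 fold change of Pml knockout over WT from edgeR with a bar of 1 SE; filled points have an unadjusted p under 0.05, the dashed line is the median of the guidance genes (0.23) and the dotted line that of all tested genes (-0.01). The 7 filled points are Neo1, Unc5b, Dcc, Sema6a, Sema4b and Epha7 on the higher side and Sema4g on the lower side. Epha7 entered the test through its knockout counts alone.

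The groups did not overlap for 7 of the 43 guidance genes (16.3%), beside 23.6% of all tested genes. The knockout libraries were all above the WT libraries for 6, namely Neo1, Unc5b, Sema6a, Sema4b, Plxnc1 and Epha7, and all below for 1, Ntn3. That is 14.0% higher and 2.33% lower, where 12.3% and 11.3% of all tested genes were. Epha7 entered the test through its knockout counts alone. The WT libraries were not alike. WT replicate 3 lay inside the range of the knockout libraries for 20 of the 43 genes (46.5%), WT replicate 1 for 13 (30.2%) and WT replicate 2 for 9 (20.9%). Over all tested genes these shares were 33.9%, 25.0% and 16.1%.

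**Figure D2:**
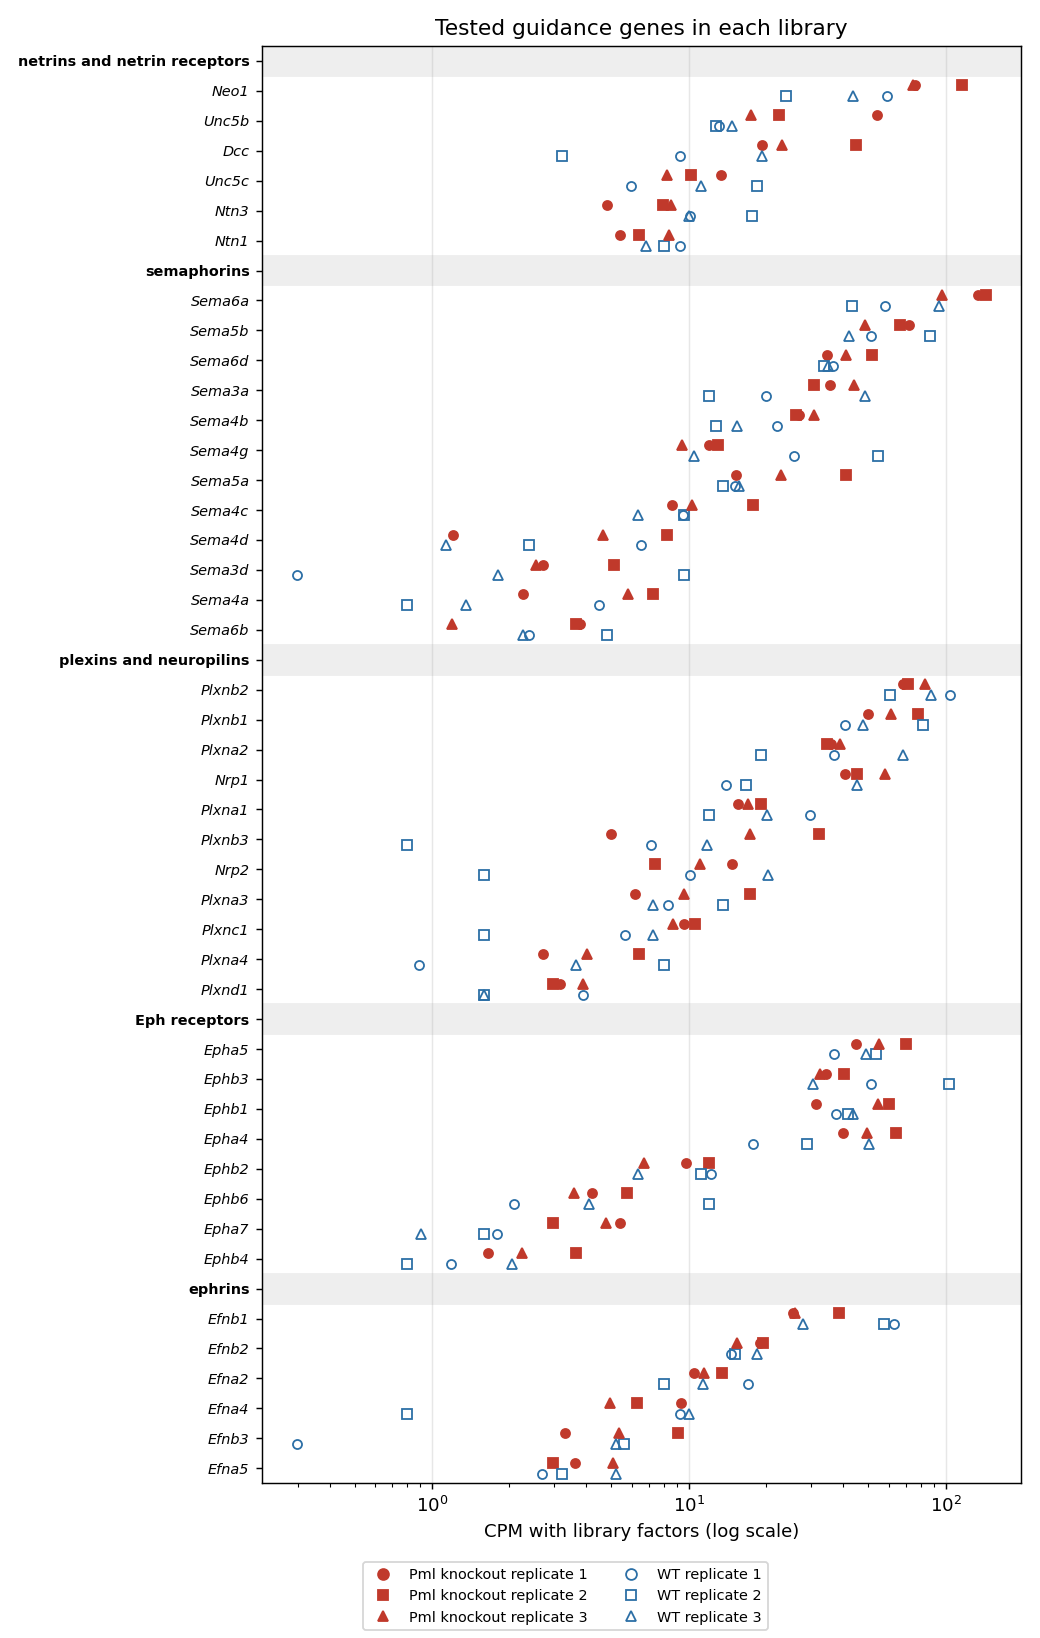
Level of the 43 tested guidance genes in every library, in CPM on a log scale. Filled red symbols are the 3 Pml knockout libraries and open blue symbols the 3 WT libraries, with 1 symbol shape per replicate number. Levels span from 0.298 CPM for Sema3d in WT replicate 1 to 144 CPM for Sema6a in knockout replicate 2, and WT replicate 2 (open squares) often lies at an edge of the 6 values.

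Neo1, Unc5b and Dcc, all receptors, had the highest fold changes of the netrin genes. Of 6 tested genes of this family, Neo1, Dcc and Unc5b had positive fold changes with an unadjusted p under 0.05, and Unc5c, Ntn1 and Ntn3 had negative ones without. None passed over all genes. The summed level of the 10 genes was 174, 210 and 142 CPM in the knockout libraries and 109, 87.9 and 108 CPM in the WT libraries, with no overlap. In the knockout libraries most of that sum came from Neo1, Unc5b and Dcc, so its lack of overlap is no separate result.

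Neo1 encodes neogenin, a receptor for netrins and for repulsive guidance molecules (ENSMUSG00000032340.8, chromosome 9, 58874687 to 59036441, minus strand, GRCm38). It had 504, 706 and 502 reads in the knockout libraries and 198, 30 and 192 in the WT libraries, which is 75.8, 116 and 74.9 CPM against 58.9, 24.0 and 43.6 CPM. Every knockout library lay above every WT library, and the lowest value was that of WT replicate 2, which had the fewest reads. The means were 89.0 ± 23.7 and 42.2 ± 17.5 CPM (SD, n = 3 each). The log2 fold change was 1.06 (SE 0.355), with an unadjusted p of 0.0138 and an edgeR adjusted p of 0.238. It stayed between 0.81 and 1.37 over the 15 alternative settings, and was 1.02 with WT replicate 3 as the sole WT library.

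Unc5b encodes a netrin receptor of repulsive signalling and cell death (ENSMUSG00000020099.8, chromosome 10, 60762593 to 60831581, minus strand, GRCm38). The knockout libraries had 361, 136 and 117 reads and the WT libraries 44, 16 and 65, or 54.3, 22.4 and 17.5 CPM against 13.1, 12.8 and 14.8 CPM. The WT values were close together, while knockout replicate 1 was far above the other knockout libraries. Means were 31.4 ± 20.0 and 13.55 ± 1.06 CPM (SD, n = 3 each), and the log2 fold change was 1.20 with SE 0.448 (unadjusted p 0.0226, edgeR adjusted p 0.248). Without knockout replicate 1 the log2 fold change was 0.56, with an adjusted p of 0.603.

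Dcc encodes the receptor that draws commissural axons towards netrin (ENSMUSG00000060534.16, chromosome 18). Its reads numbered 128, 271 and 155 in the knockout libraries and 31, 4 and 85 in the WT libraries, giving 19.3, 44.7 and 23.1 CPM against 9.23, 3.20 and 19.3 CPM. WT replicate 3 matched knockout replicate 1, and WT replicates 1 and 2 were lower than all knockout libraries. The fitted log2 fold change was 1.35 with SE 0.542 (unadjusted p 0.0314, edgeR adjusted p 0.272). It passed without WT replicate 3 (2.07, adjusted p 0.0333), whereas with WT replicate 3 as the sole WT library it was 0.58 (adjusted p 0.540).

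**Figure D3:**
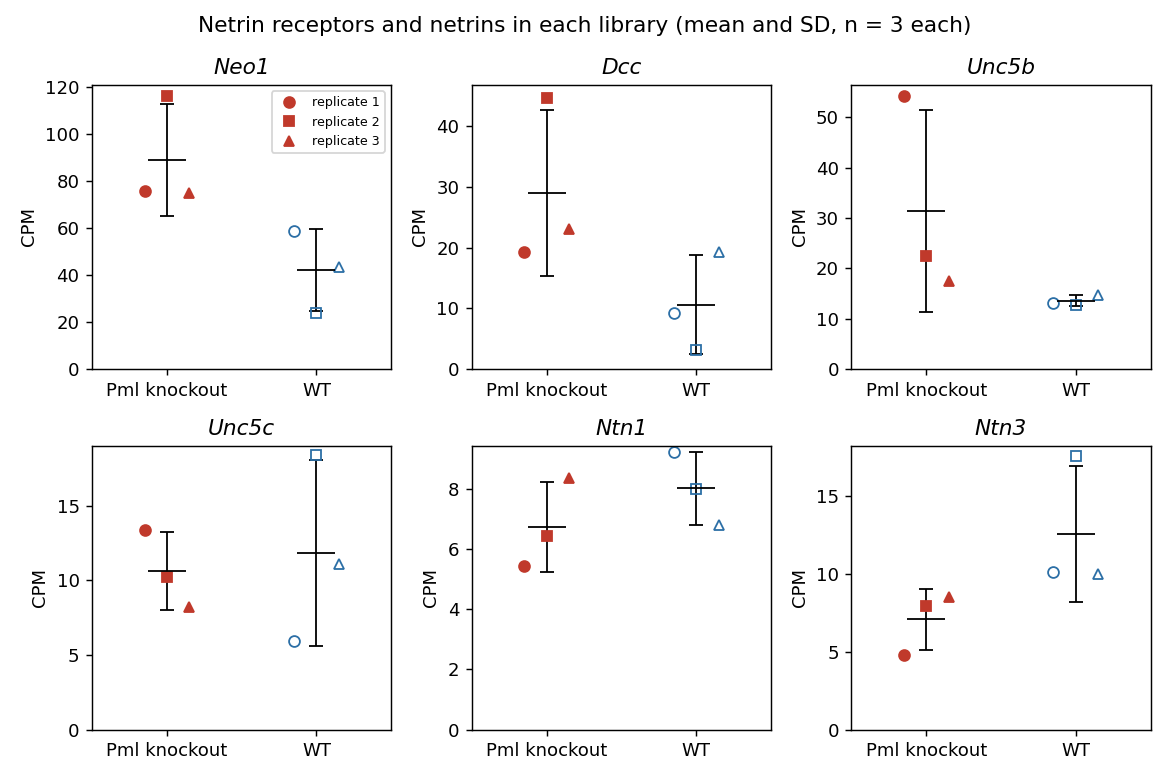
Level of 4 netrin receptors and 2 netrins in each library, in CPM on linear axes that start at 0. Points are libraries (Pml knockout filled, WT open, shape by replicate), and the black bars are the mean and SD of 3 libraries. The knockout values of Neo1 and Unc5b lie above all WT values, those of Ntn3 below all WT values, and those of Dcc, Unc5c and Ntn1 overlap with WT.

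The remaining netrin genes were at lower levels. Unc5c, another repulsive netrin receptor, had 13.4, 10.2 and 8.20 CPM in the knockout and 5.95, 18.4 and 11.1 CPM in WT, where the WT values spanned all knockout values. Ntn1, the netrin of the ventral midline, had 36, 39 and 56 reads in the knockout and 31, 10 and 30 in WT, or 5.42, 6.43 and 8.35 CPM against 9.23, 7.99 and 6.81 CPM. Ntn3 had 4.81, 7.92 and 8.50 CPM in the knockout and 10.1, 17.6 and 9.99 CPM in WT, so that all knockout values were lower, and its adjusted p was 0.399 by edgeR. The annotated span of Tbc1d24, on the same strand, overlaps the 3′ end region of Ntn3. Whether reads of Tbc1d24 were counted for Ntn3 was not tested. Ntn4, Ntn5, Unc5a and Unc5d had at most 6 reads in any library.

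The start regions of Neo1, Unc5b and Sema4g are shown because the first 2 had the knockout libraries above all WT libraries and the last had the opposite sign. Each is 300 bases long, 250 before and 50 after a RefSeq transcription start on GRCm38.p6, printed on the strand of the gene. Capitals mark the GC box GGGCGG or its reverse complement CCGCCC, the letters that the Sp1 family of factors is known to bind. The Neo1 window is chr9:59036392-59036691 on the minus strand, the Unc5b window chr10:60831532-60831831 on the minus strand, and the Sema4g window chr19:44989094-44989393 on the plus strand.
Neo1: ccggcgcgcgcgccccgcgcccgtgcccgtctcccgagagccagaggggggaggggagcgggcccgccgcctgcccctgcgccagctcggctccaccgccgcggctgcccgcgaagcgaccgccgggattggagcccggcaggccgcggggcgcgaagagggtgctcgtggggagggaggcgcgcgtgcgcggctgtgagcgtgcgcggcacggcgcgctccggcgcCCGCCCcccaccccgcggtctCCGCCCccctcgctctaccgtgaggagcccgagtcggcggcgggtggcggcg
Unc5b: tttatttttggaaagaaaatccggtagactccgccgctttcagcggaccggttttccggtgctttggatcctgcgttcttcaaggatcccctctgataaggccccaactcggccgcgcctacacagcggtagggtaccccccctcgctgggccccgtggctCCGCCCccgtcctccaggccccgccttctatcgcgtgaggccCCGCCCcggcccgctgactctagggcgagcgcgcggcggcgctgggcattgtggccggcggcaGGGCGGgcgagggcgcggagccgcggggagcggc
Sema4g: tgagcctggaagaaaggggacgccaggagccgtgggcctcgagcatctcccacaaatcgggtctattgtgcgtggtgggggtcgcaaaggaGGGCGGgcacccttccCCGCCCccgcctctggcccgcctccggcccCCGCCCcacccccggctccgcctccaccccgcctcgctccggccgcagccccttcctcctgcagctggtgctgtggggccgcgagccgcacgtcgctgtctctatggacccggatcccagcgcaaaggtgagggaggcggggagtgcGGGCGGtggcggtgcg
The windows held 2, 3 and 4 GC boxes and 54, 36 and 30 CpG dinucleotides, and the letters TATAAA or TTTATA occurred in none of them. A GC box on either strand was found in 35.7% of all 32851 promoter windows and in 75.0% of the 68 windows of the 54 guidance genes listed in the RefSeq table. The TATA letters were found in 13.6% of all windows. The median CpG number was 20.5 in the guidance windows and 7 in all windows. All 3 windows held GC boxes. With all 6 libraries none of the 3 genes passed, Sema4g overlapped between genotypes, and a link between boxes and counts was not tested.

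Among the semaphorins, the ligands, 12 of 20 genes were tested. Fitted levels were higher in the knockout for 10 and lower for 2, Sema4g and Sema6b, with a median log2 fold change of 0.43, and 0 passed. The summed level was 353, 423 and 322 CPM in the knockout and 260, 291 and 280 CPM in WT.

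Sema6a, a membrane-bound ligand of class A plexins that is known for its part in neuronal migration and axon tract formation, had the highest mean level over all 6 libraries, though in WT cells Plxnb2 was higher at 84.2 CPM (ENSMUSG00000019647.16, chromosome 18). The knockout libraries had 892, 872 and 650 reads and the WT libraries 195, 54 and 414, or 134, 144 and 97.0 CPM against 58.0, 43.2 and 94.0 CPM. Knockout replicate 3 lay just above WT replicate 3, and WT replicates 1 and 2 lay well below both. Means were 125 ± 24.7 and 65.1 ± 26.1 CPM (SD, n = 3 each), and the log2 fold change was 0.93 with SE 0.329 (unadjusted p 0.0179, edgeR adjusted p 0.240). It passed without WT replicate 3 (1.30, adjusted p 0.0235), whereas against WT replicate 3 alone it was 0.41 (adjusted p 0.460).

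Sema4b, a transmembrane semaphorin (ENSMUSG00000030539.13, chromosome 7, 80186841 to 80226527, plus strand), had 178, 159 and 206 reads in the knockout and 74, 16 and 68 in WT. That is 26.8, 26.2 and 30.7 CPM against 22.0, 12.8 and 15.4 CPM. All knockout values were above all WT values and close to each other. The log2 fold change was 0.72 (SE 0.321), with an unadjusted p of 0.0491 and an edgeR adjusted p of 0.314. It stayed between 0.59 and 0.97 over the alternative settings.

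Sema4g, another transmembrane semaphorin of class 4 (ENSMUSG00000025207.16, chromosome 19, 44989101 to 45003397, plus strand), was the guidance gene with the most negative fold change. Its reads numbered 80, 79 and 63 in the knockout and 86, 68 and 46 in WT, giving 12, 13.0 and 9.40 CPM against 25.6, 54.4 and 10.4 CPM. WT replicate 3 lay among the knockout libraries, and WT replicates 1 and 2 stood above them. The fitted log2 fold change was -1.34 with SE 0.525 (unadjusted p 0.0290, edgeR adjusted p 0.266). It passed without WT replicate 3 (-1.74, adjusted p 0.0217), whereas against WT replicate 3 alone it was 0.13 (adjusted p 0.900). The order of the WT libraries for Sema4g is that of the hepatocyte marker sum, at 513, 828 and 157 CPM in WT replicates 1, 2 and 3. Other genes, such as Ephb3, Sema5b, Gipc1 and Git1, had that order too, so it is not particular to Sema4g. The part of the hepatocyte signal in the difference was not tested.

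The other abundant semaphorins overlapped between genotypes. Sema5b, which repels or attracts axons depending on context, had 71.8, 66.8 and 48.5 CPM in the knockout and 51.2, 87.1 and 42.2 CPM in WT (log2 fold change 0.07, SE 0.330, edgeR adjusted p 0.935). Sema6d, a transmembrane ligand of plexin A1, had 34.6, 51.8 and 41.0 CPM against 36.3, 33.6 and 35.0 CPM in WT (0.28, SE 0.281, edgeR adjusted p 0.642). Sema3a, the secreted ligand that collapses growth cones through neuropilin 1, had 35.5, 30.8 and 44.2 CPM in the knockout and 19.9, 12 and 48.6 CPM in WT. In Sema3a, WT replicate 3 exceeded every knockout library while WT replicates 1 and 2 were below them. Its log2 fold change, given like that of Sema5a after the values were seen, was 0.41 (SE 0.451, edgeR adjusted p 0.669). Sema5a had 15.3, 41.1 and 23.0 CPM in the knockout and 15.2, 13.6 and 15.7 CPM in WT, with knockout replicate 1 at the WT level and a log2 fold change of 0.83 (SE 0.4004, edgeR adjusted p 0.342). The 8 semaphorins left untested had at most 16 reads in any library. Sema3g had 0 reads in all 6 libraries, where 3 reads would be 0.451, 0.495 and 0.447 CPM in the knockout libraries and 0.893, 2.40 and 0.681 CPM in the WT libraries.

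All 11 plexins and neuropilins, the semaphorin receptors, were tested, and 0 passed or had an unadjusted p under 0.05. Fitted levels were higher in the knockout for 7 and lower for 4, with a median log2 fold change of 0.23. Their summed level was 252, 326 and 313 CPM in the knockout and 261, 217 and 322 CPM in WT, and the groups overlapped.

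Plxnb2 and Plxnb1, class B plexins that are receptors of class 4 semaphorins, were the most abundant of them by the mean over all libraries. Plxnb2, which neural progenitors are known to express, had 68.6, 71.7 and 83.2 CPM in the knockout and 104, 60.8 and 88.1 CPM in WT. Its means of 74.5 ± 7.70 and 84.2 ± 21.8 CPM (SD, n = 3 each) gave a log2 fold change of -0.18 (SE 0.277, edgeR adjusted p 0.760). Plxnb1, the receptor of Sema4d, had 49.8, 78.0 and 61.2 CPM in the knockout and 40.8, 81.5 and 47.7 CPM in WT (0.17, SE 0.331, edgeR adjusted p 0.819). For both genes the WT values spanned the knockout values.

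Of the class A plexins, Plxna2 was at the highest level, with 36.0, 34.5 and 38.9 CPM in the knockout and 36.9, 19.2 and 68.6 CPM in WT. WT replicates 2 and 3 were the lowest and the highest of the 6 libraries, and the log2 fold change was -0.22 (SE 0.405, edgeR adjusted p 0.807). Plxnc1, the receptor of Sema7a, was at 9.63, 10.6 and 8.65 CPM in the knockout and 5.66, 1.60 and 7.26 CPM in WT, with no overlap and an edgeR adjusted p of 0.412. Plxnb3 ranged from 4.96 to 32.2 CPM in the knockout and from 0.799 to 11.8 CPM in WT.

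Nrp1, a co-receptor of Sema3a and of vascular endothelial growth factor, is described because of how its WT libraries split, a choice made after its values were seen. It had 271, 275 and 388 reads in the knockout and 47, 21 and 200 in WT, or 40.8, 45.3 and 57.9 CPM against 14.0, 16.8 and 45.4 CPM. WT replicate 3 lay inside the knockout range, and WT replicates 1 and 2 were the 2 lowest libraries. The log2 fold change was 0.88 (SE 0.437) with an edgeR adjusted p of 0.351. It was 1.67 (adjusted p 0.0166) without WT replicate 3 and 0.08 (adjusted p 0.918) against WT replicate 3 alone. Nrp2 ranged from 7.42 to 14.7 CPM in the knockout and from 1.60 to 20.4 CPM in WT.

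Of the 8 ephrins, the membrane-bound ligands of Eph receptors, 6 were tested and 0 passed or had an unadjusted p under 0.05. Fitted levels were higher for 3 and lower for 3, and the median log2 fold change was -0.01. The summed level was 72.1, 91.4 and 70.9 CPM in the knockout and 107, 90.3 and 81.0 CPM in WT.

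Efnb1, a transmembrane ephrin known to act in neural progenitors, was the most abundant. It had 170, 233 and 174 reads in the knockout and 211, 72 and 123 in WT, or 25.6, 38.4 and 26.0 CPM against 62.8, 57.6 and 27.9 CPM. WT replicate 3 lay within the knockout range, and WT replicates 1 and 2 lay above it. Means were 30.0 ± 7.31 and 49.4 ± 18.8 CPM (SD, n = 3 each), and the log2 fold change was -0.71 with SE 0.363 (edgeR adjusted p 0.366). The value was -0.995 (adjusted p 0.0496) without WT replicate 3 and 0.10 (adjusted p 0.908) against WT replicate 3 alone. Efnb2, a transmembrane ephrin of arteries and of several neural tissues, had 19.0, 19.5 and 15.4 CPM in the knockout and 14.6, 15.2 and 18.4 CPM in WT (0.15, SE 0.319, edgeR adjusted p 0.835). Efna2, anchored to the membrane by a lipid, had 10.5, 13.52 and 11.5 CPM in the knockout and 17.0, 7.99 and 11.3 CPM in WT (-0.06, SE 0.390, edgeR adjusted p 0.951). Efnb2 and Efna2 overlapped between genotypes. Efna3 had 0 reads in all libraries and Efna1 at most 18.

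Of the 14 Eph receptors, 8 were tested, 5 with a higher and 3 with a lower fitted level in the knockout. The median log2 fold change was 0.27, and 0 passed. Summed levels were 173, 260 and 209 CPM in the knockout and 161, 253 and 186 CPM in WT.

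Epha7, a receptor of A-type ephrins that is known for its graded expression in the cortex, was at a low level (ENSMUSG00000028289.12, chromosome 4, 28813131 to 28967499, plus strand). The knockout libraries had 36, 18 and 32 reads and the WT libraries 6, 2 and 4, or 5.42, 2.97 and 4.77 CPM against 1.79, 1.60 and 0.908 CPM. It was the sole tested guidance gene with no WT library at the cutoff of the count filter. A positive fold change was thus a condition of its being tested, and its test values are a description. Other genes leaned on their knockout counts in part. Sema3d, Sema4a and Plxnd1 had 3 knockout libraries and 1 WT library at the cutoff, Ephb4 and Sema4d 2 and 1, and Plxnc1, among others, 3 and 2. All knockout values were above all WT values, but the WT values rest on few reads, and 3 reads in WT replicate 2 alone would be 2.40 CPM. The means were 4.39 ± 1.27 and 1.43 ± 0.462 CPM (SD, n = 3 each). The fitted log2 fold change was 1.65 with SE 0.639 (unadjusted p 0.0267, edgeR adjusted p 0.260). It lay between 1.35 and 2.25 over the alternative settings that tested the gene.

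The abundant Eph receptors overlapped between genotypes. Epha5, a receptor of A-type ephrins, had 44.8, 69.9 and 54.9 CPM in the knockout and 36.9, 53.6 and 48.8 CPM in WT (log2 fold change 0.29, SE 0.292, edgeR adjusted p 0.639). Ephb1, a receptor of B-type ephrins, had 31.3, 60.0 and 54.4 CPM against 37.5, 41.6 and 43.6 CPM in WT (0.25, SE 0.313, edgeR adjusted p 0.711). Knockout replicate 1 was the lowest of the 6 libraries for Ephb1. Ephb3, which acts with Ephb2 in forebrain commissures, had 34.2, 40.1 and 32.5 CPM in the knockout and 51.2, 103 and 30.4 CPM in WT. WT replicate 2 was the highest and WT replicate 3 the lowest of its 6 values, and the log2 fold change was -0.76 (SE 0.412, edgeR adjusted p 0.385). Epha4, a receptor of both ephrin types, was added after its values were seen, with 40.0, 64.0 and 49.7 CPM in the knockout and 17.9, 28.8 and 50.2 CPM in WT. Its log2 fold change was 0.65 (SE 0.392) with an edgeR adjusted p of 0.430, 1.19 (adjusted p 0.0486) without WT replicate 3 and 0.02 (adjusted p 0.977) against WT replicate 3 alone.

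Low Eph receptors were Epha2, with 6, 2 and 1 reads in the knockout and 0 in each WT library, and Epha3, with 6, 7 and 0 reads in the knockout and 0 in each WT library. A count of 0 in WT replicates 1, 2 and 3 allows up to 0.893, 2.40 and 0.681 CPM, and the knockout values of Epha2 averaged 0.461 CPM and those of Epha3 0.686 CPM. Neither gene was tested, so no difference is claimed, although every knockout library had more Epha2 reads than every WT library. Epha6 and Epha8 had 0 reads in every library. Of the 20 untested guidance genes, 16 had some reads, with at most 18 in any library.

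Which guidance genes passed depended on the WT libraries kept. Without WT replicate 3, 6 of 45 tested guidance genes passed by edgeR (13.3%), namely Sema6a, Dcc, Nrp1 and Epha4 on the higher side and Sema4g and Efnb1 on the lower side, where 13.0% of all tested genes passed, 5.01% as higher in the knockout and 7.97% as lower. Without both WT replicates 1 and 2, 0 of 47 passed, where 1.17% of all tested genes did, 0.748% as higher and 0.419% as lower. In that fit WT replicate 3 is the sole WT library, and its spread is assumed to be that of the knockout libraries. For Neo1, Unc5b, Sema4b and Epha7 the log2 fold changes in these 2 fits were 1.07 and 1.02 for Neo1, 1.29 and 1.09 for Unc5b, 0.64 and 0.85 for Sema4b, and 1.35 and 2.25 for Epha7. None of these values passed. The WT libraries that remain without WT replicate 3 are those with Rn45s shares of 41.9% and 39.8% and hepatocyte sums of 513 and 828 CPM, and the part of these in the calls was not tested.

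**Figure D4:**
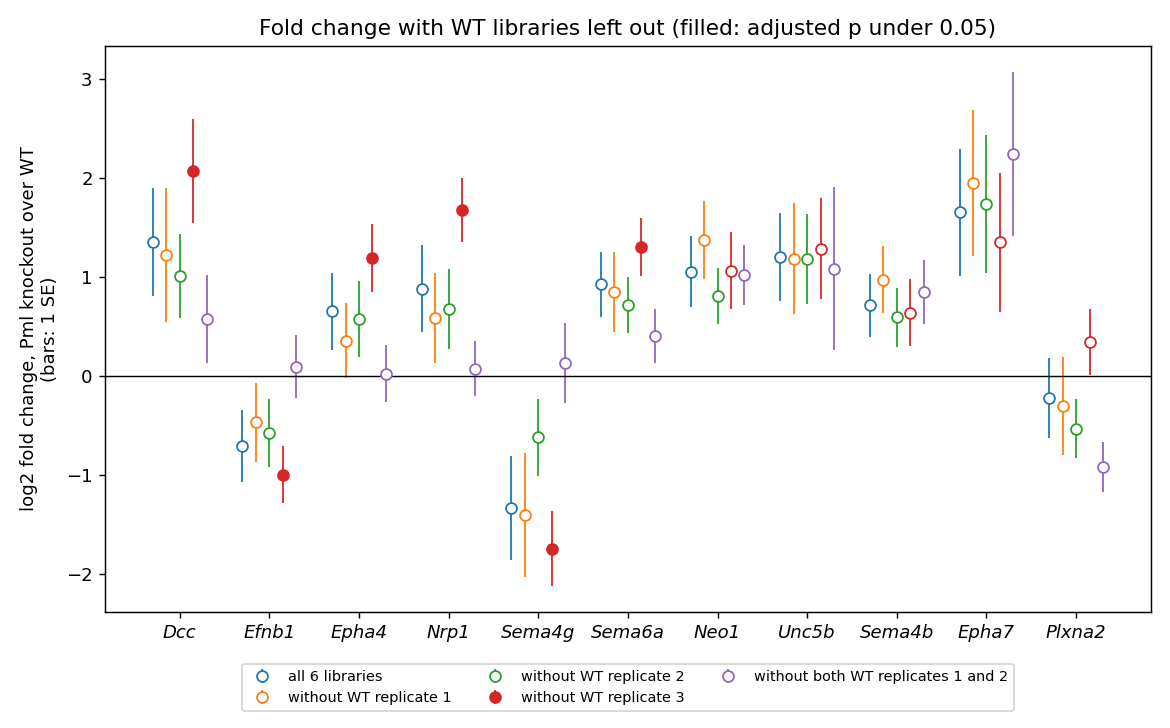
Log2 fold change of 11 guidance genes, Pml knockout over WT, with all 6 libraries and with WT libraries left out. Bars are 1 SE and filled points have an edgeR adjusted p under 0.05; they occur for 6 genes, and only in the fit without WT replicate 3. Dcc, Epha4, Nrp1, Sema6a, Neo1, Unc5b, Sema4b and Epha7 are above 0 in all 5 fits, down to 0.02 for Epha4 and 0.08 for Nrp1, while Efnb1 and Sema4g change sign without both WT replicates 1 and 2, and Plxna2 without WT replicate 3.

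In the authors' deposited table, 48 guidance genes have an adjusted p and 0 of them are under 0.05, beside 363 of 12349 genes in all. The smallest in the authors' deposited table is that of Neo1, with a log2 fold change of 1.08 and an adjusted p of 0.0908. Dcc and Unc5b follow there with log2 fold changes of 1.39 and 1.23 and adjusted p-values of 0.122 each.

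Partners of these pathways, 58 genes listed with earlier results of the series known, gave 50 tested genes. Their fitted levels were higher in the knockout for 28 and lower for 22, with a median log2 fold change of 0.07. By edgeR 0 passed, and 4 (8.0%) had an unadjusted p under 0.05, where 15.9% of all tested genes did. These 4 were Dscam, Trim9 and Draxin on the higher side and Gipc1 on the lower side.

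Dscam, a cell adhesion molecule that also binds netrin, had 288, 418 and 289 reads in the knockout and 65, 17 and 126 in WT. That is 43.3, 68.9 and 43.1 CPM against 19.3, 13.6 and 28.6 CPM, with no overlap, and means of 51.8 ± 14.8 and 20.5 ± 7.57 CPM (SD, n = 3 each). For Dscam the fitted log2 fold change was 1.30 with SE 0.356 (edgeR adjusted p 0.212), and it passed by DESeq2 (adjusted p 0.0433) and without WT replicate 3 (adjusted p 0.0222). Trim9, a ubiquitin ligase that binds Dcc, averaged 218 ± 58.5 CPM in the knockout and 93.3 ± 41.4 CPM in WT (SD, n = 3 each), and the log2 fold change was 1.21 with SE 0.381 (edgeR adjusted p 0.228). Draxin, a secreted guidance protein that binds Dcc and netrin, averaged 53.7 ± 6.87 CPM against 31.9 ± 8.03 CPM in WT (0.76, SE 0.300, edgeR adjusted p 0.268). The knockout values of Trim9 and Draxin were all above their WT values. The same held for partners with larger p-values, such as Dpysl2, Dpysl3, Rnd3 and Nck2, and for 12.3% of all tested genes. It is thus not particular to the partners described here, and its share among the partners was not counted.

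Gipc1, an adaptor that binds the tail of neuropilin 1, went the other way in fitted level. It had 20.2, 19.6 and 29.4 CPM in the knockout and 45.5, 95.9 and 24.3 CPM in WT, and the log2 fold change was -1.23 (SE 0.463, edgeR adjusted p 0.252). WT replicate 3 lay within the knockout range. The Gipc1 value was -1.57 (adjusted p 0.0243) without WT replicate 3, -0.57 without WT replicate 2 and -0.08 against WT replicate 3 alone. Git1, a scaffold that acts downstream of ephrin B, averaged 31.1 ± 2.08 CPM in the knockout and 56.2 ± 28.8 CPM in WT (-0.83, SE 0.382, edgeR adjusted p 0.323). Ptk2, the focal adhesion kinase that Dcc engages, averaged 62.3 ± 4.43 CPM in the knockout and 41.2 ± 8.69 CPM in WT (0.58, SE 0.274, edgeR adjusted p 0.331), with no overlap.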

How the data were processed

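Per the labels' protocols, RNA of integrity above 7 was made into QuantSeq forward 3′ tag libraries by 20 to 24 PCR cycles. The submitters' processing notes name HISAT2, HTSeq, edgeR, FastQC and the mm10 build. Tool versions, gene annotation and the strand used were not given in the sources used here. In the deposited table are raw counts per gene symbol for 24421 rows, and, per the file headers, the authors' log2 fold change, p-value and adjusted p-value, which are quoted only as theirs. Left unused were 6 per-sample columns of normalized values. Each library column was assigned by its name in the labels.

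The tests used edgeR 4.0.16 under R 4.3.3: default filter (minimum count 10, total 15), trimmed mean of M values, robust quasi-likelihood F test without covariates, Benjamini-Hochberg adjustment over 11317 genes, threshold 0.05. SE is the log2 fold change over the square root of F. Fold change, SE and adjusted p are given for guidance genes with an unadjusted p under 0.05, the 3 most abundant of each family, 6 partner genes with the smallest p, and Pml. Outside that rule they are also given for Sema3a, Sema5a, Nrp1 and Epha4. The adjusted p alone is given for Ntn3 and Plxnc1, whose groups did not overlap. Members and lists were chosen with earlier results of these data known. Alternatives were 2 normalizations, 2 filters, DESeq2 1.42.0, limma voom (limma 3.58.1), the replicate number as a block, leaving out Rn45s, both WT replicates 1 and 2, and each library. The fit was tested first on simulated counts, which held no split between WT replicate 3 and the other WT libraries. Of 50 changed genes each, it called 34 raised 4-fold, 32 lowered 4-fold, 4 raised 2-fold and 8 lowered 2-fold. It also called 4 unchanged genes. Gene models are GENCODE M21 (GRCm38, the assembly of mm10) and promoters RefSeq.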

Additional observations from a re-analysis of the deposited data

How the results depend on the processing

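Of the guidance genes, 0 passed with all 6 libraries and under every alternative run but 1: leaving out 1 library gave 0 to 6, the 6 without WT replicate 3. Without that fit the smallest adjusted p was 0.0752, from the fit without both WT replicates 1 and 2, for Plxna2. The median log2 fold change of the guidance genes was 0.23 with all libraries, between 0.21 and 0.28 under the other normalizations, filters and tools, and between 0.10 (without knockout replicate 2) and 0.42 (without knockout replicate 1) with 1 library left out. Over all genes, 1 passed with all libraries. There were 0 with DESeq2's size factors, 3 without a count filter, 0 with a minimum of 5 CPM, 328 by DESeq2, 0 by limma voom, 0 without the Rn45s row and 142 without both WT replicates 1 and 2; leaving out 1 library gave 0 to 1526. At an unadjusted p under 0.05, edgeR took 1798 genes, limma voom 1719 and DESeq2 2043; edgeR took 1806 with DESeq2's size factors, 1618 with the 5 CPM minimum and 1801 without Rn45s. Of the partner genes, 1 passed by DESeq2 (Dscam), 1 without both WT replicates 1 and 2 (Draxin), and 0 to 4 with 1 library left out; the 4, without WT replicate 3, were Dscam, Rock1, Gipc1 and Git1. The causes of these shifts were not tested.

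Signs turned for 10 named genes, none of which passed in the fit where its sign turned. Without both WT replicates 1 and 2 the log2 fold change was 0.055 for Efna2, 0.096 for Efnb1, -0.042 for Efnb2, 0.22 for Ephb3, 0.10 for Git1 and 0.13 for Sema4g. With 1 library left out it ran from -0.24 to 0.26 for Efna2, from -0.53 to 0.34 for Plxna2, from -0.0085 to 0.51 for Plxnb1, from -0.35 to 0.0018 for Plxnb2 and from -0.12 to 0.43 for Sema5b.

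Whether same-numbered libraries were paired is not given in the labels. The correlations of their deviations from the group means were -0.0025, 0.067 and 0.19 for numbers 1, 2 and 3. Pairs with different numbers gave -0.18 to 0.087. These numbers, also used for the replicate block, are those of the sample titles. In the library names, knockout replicates 1 and 2 are numbered 2 and 3. By the library names, the pair of number 2 gave 0.087 and that of number 3 gave -0.056. With 3 libraries in each group these values cannot decide whether libraries were paired. With the replicate block 2 genes passed in all, 0 guidance genes and 0 partners, and the guidance median was 0.28. At the depth of WT replicate 2, 3 reads are 2.40 CPM, so differences in genes near that level rest on few reads there.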
